A study of Mus musculus with 8 samples.

Results

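The 9 genes described here encode ataxin-1 and proteins that work with it in transcription and RNA processing: Atxn1, Atxn1l, Rbm17, Atxn2, Ncor1, Sin3a, Hdac2, Hdac3 and Kat5. They were chosen by name, with earlier results of these data known. A gene's value was the mean log2 expression value of the probe sets annotated with its symbol alone. All 9 were found, with 170 of the 241576 probe sets on the array and 9 of the 20352 genes measured. RNA came from whole cerebellum of mice 28 days old on a mixed Swiss Webster (CD-1) background. The 4 wild-type animals were compared with 4 animals whose genotype label is Cic-L-null, which the titles write Cicnull. Expression was read on Affymetrix Mouse Gene 1.0 ST arrays, 1 for each animal. The labels do not describe the Cic allele further. No treatment is labelled. The labels do not name a promoter or cell type to which the allele is limited, so a difference cannot be tied to a cell type.

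Ataxin-1 is the protein whose expanded glutamine tract causes spinocerebellar ataxia type 1, a disease in which Purkinje cells of the cerebellum degenerate. Ataxin-1 and its paralogue ataxin-1-like bind Capicua, a DNA-binding repressor, and both help to keep Capicua protein stable. Repressors of this kind recruit scaffolds such as NCoR1 and SIN3A, which bring histone deacetylases to chromatin and close it, whereas acetyltransferases such as TIP60, encoded by Kat5, act in the opposite direction. The comparison asks whether RNA of the partners differed in Cic-L-null animals, in which Cic RNA was lower. Capicua protein was not measured.

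Cic, which encodes Capicua, lay at 8.74, 8.57, 8.63 and 9.19 in wild-type replicates 1 to 4 and at 7.50, 7.48, 7.62 and 7.54 in Cic-L-null replicates 1 to 4. Its groups did not overlap, and the difference was -1.25 (SE 0.12, adjusted p = 0.00818 with limma). Defining cerebellar markers were present: Calb1, a calcium-binding protein of Purkinje cells, averaged 11.61 in both groups, and Gabra6, a GABA receptor subunit of granule cells, averaged 12.45 and 12.41. Of 5 granule cell markers, Gabra6 was the 1 with a difference below 0; the list's median was 0.084, and its level lowest for Neurod2, with means of 7.09 and 7.24. The mean over 4 oligodendrocyte markers lay between 10.47 and 10.54 in wild-type arrays and between 10.31 and 10.43 in Cic-L-null arrays. That over 5 Bergmann glia and astrocyte markers lay between 9.86 and 9.99 and between 9.77 and 9.82. In neither list did these ranges overlap. All 4 and all 5 genes were lower in Cic-L-null, with median differences of -0.11 and -0.14. Groups did not overlap for 2 of the 4 and 1 of the 5, beside 5.94% of all genes. Mobp, of oligodendrocytes, differed by -0.30 (SE 0.060) and Gdf10, of Bergmann glia, by -0.33 (SE 0.073), both larger in size than any member difference. The mean over 5 choroid plexus markers spanned 8.14 to 8.53 in wild-type and 7.35 to 8.55 in Cic-L-null. Their median difference was -0.28, with 4 of the 5 below 0. None of these markers passed over all genes, and their part in the values below was not tested. In whole tissue, fewer cells of a type and less RNA per cell cannot be told apart. Wild-type replicate 1 stood apart in its labels, which alone name a Trizol and RNeasy extraction. It held the highest value of the 8 arrays for 26.0% of the 14010 genes above the dim limit of 6.21, the 95th percentile of 985 olfactory receptor genes, which are not expected in this tissue.

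All 9 members were measured well above that limit, and none passed the test. The threshold was an adjusted p under 0.05 with limma, adjusted over every gene measured. By it 0 of the 9 were called, whereas 28 genes were called in all, 0.138% of the total, with 0.0884% higher and 0.0491% lower in Cic-L-null. The mean of every member was slightly higher in Cic-L-null than in wild-type, by 0.020 to 0.14 log2 units with a median of 0.066, which is between 1.01-fold and 1.10-fold. Over all genes the median difference was -0.0071, and 47% of genes had a difference above 0. The adjusted p of the members ran from 0.45 for Hdac3 to 0.961 for Atxn1l. One member, Hdac3, had an unadjusted p under 0.05, a share of 11.1% of the members against 9.26% of all genes, of which 4.56% were higher. It lost that mark on leaving out wild-type replicate 2 or 3 or Cic-L-null replicate 2 or 4, and with the replicate number as a block; in these 5 fits limma gave unadjusted p of 0.0526 to 0.0852 and adjusted p of 0.484 to 0.744. Levels of different genes are not ranked here, because probes differ in how they respond to the same amount of RNA.

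**Figure D1:**
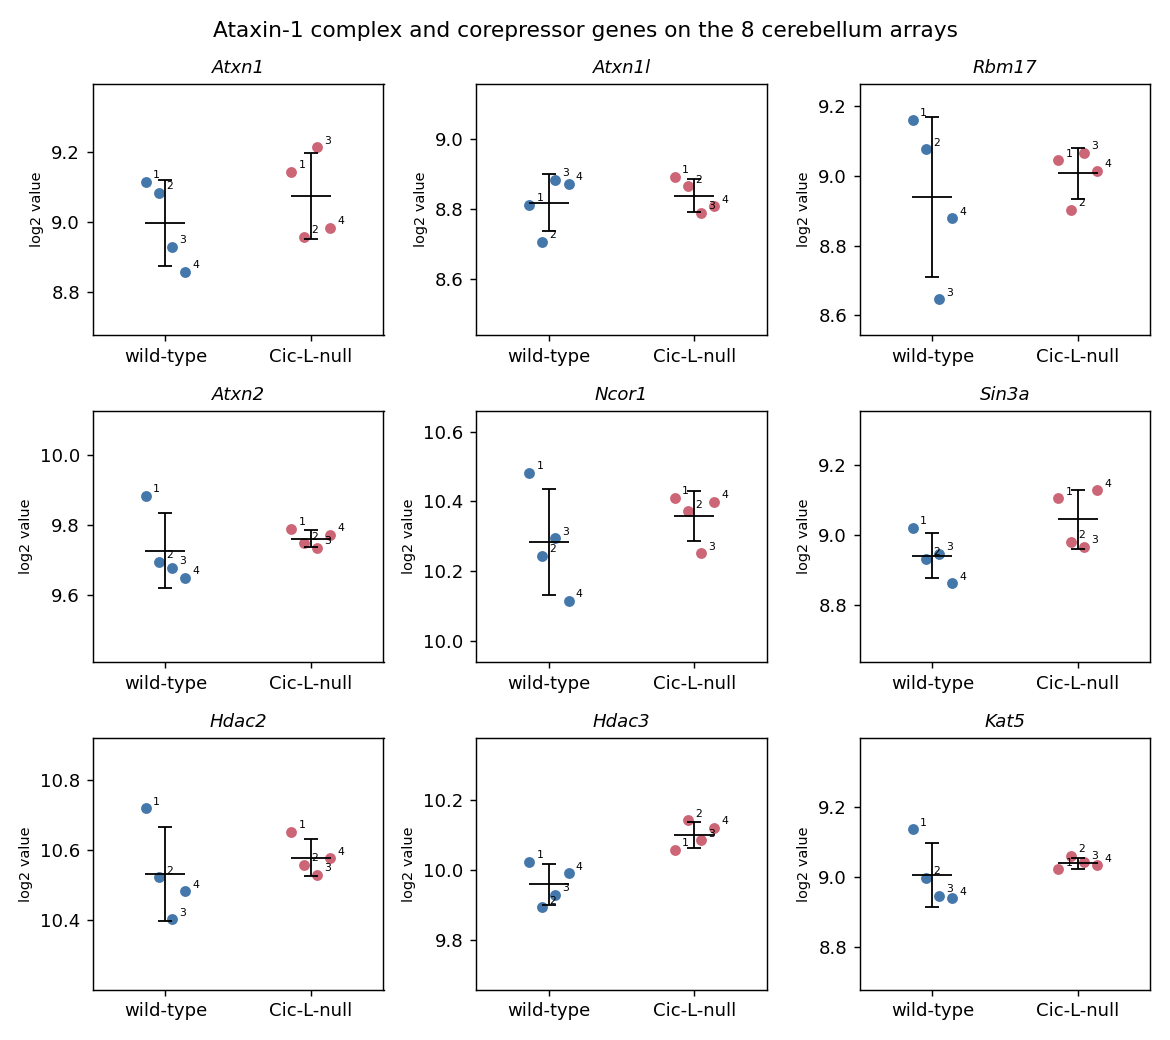
Each panel plots the log2 value (y axis, all panels spanning the same range of log2 units) of 1 gene on the 4 wild-type and the 4 Cic-L-null arrays; numbers beside the points are replicates, long bars are means and whiskers are SD. Hdac3 is the member whose groups do not overlap, with wild-type arrays up to 10.02 and Cic-L-null arrays from 10.06.

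Atxn1 encodes ataxin-1 itself. Its log2 value was 9.11, 9.08, 8.93 and 8.86 in wild-type replicates 1 to 4 and 9.14, 8.96, 9.21 and 8.98 in Cic-L-null replicates 1 to 4. The groups overlapped, with Cic-L-null replicate 3 the highest array and wild-type replicate 4 the lowest. The means were 8.995 ± 0.12 (SD, n = 4) and 9.07 ± 0.12 (SD, n = 4), a difference of 0.078 (SE 0.082) with a 95% interval from -0.10 to 0.26. In fold terms the interval ran from 0.930 to 1.20. The adjusted p was 0.853 with limma, and with 1 array left out the difference lay between 0.032 (without Cic-L-null replicate 3, and likewise without wild-type replicate 4) and 0.12 (without wild-type replicate 1).

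The 10 probe sets of Atxn1 did not all give the same size of difference. There were 8 above 0 and 2 below. Probe set 10408939 was the highest at 0.30 (SE 0.12), and probe set 10408946 was the lowest at -0.48 (SE 0.29). The latter averaged 6.28 over the 8 arrays, under the probe set dim limit of 6.31, and its lowest value was 5.24 in Cic-L-null replicate 4. Probe set 10408941 was the 1 Atxn1 probe set without overlap, from 8.93 to 9.06 in wild-type and from 9.13 to 9.59 in Cic-L-null, with a difference of 0.27 (SE 0.12, adjusted p = 0.727 over all probe sets with limma).

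The size of the Atxn1 difference therefore moved with the way probe sets were combined. It was 0.14 (adjusted p = 0.659) with the 9 probe sets above the dim limit and 0.22 (adjusted p = 0.615) with the median of the probe sets on each array. Neither passed with limma, and the upper ends of their intervals were 1.27-fold and 1.37-fold. The test of unequal probe set differences within a gene, diffSplice of limma, gave an unadjusted p of 0.0657 and an adjusted p of 0.828 for Atxn1, the smallest of the 9. With it 0 of 9 members were called, against 0.602% of 18093 genes, and 0 members had an unadjusted p under 0.05, against 6.51% of genes.

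Atxn1l encodes ataxin-1-like, which shares with ataxin-1 the AXH domain that contacts Capicua. It lay at 8.81, 8.71, 8.88 and 8.87 in wild-type replicates 1 to 4 and at 8.89, 8.86, 8.79 and 8.81 in Cic-L-null replicates 1 to 4. The Cic-L-null arrays lay inside the wild-type range but for replicate 1, just above it. The difference was 0.020 (SE 0.061, 95% interval -0.11 to 0.15), the smallest of the 9, and its 3 probe sets gave 0.0089, -0.054 and 0.10. It turned to -0.018 without wild-type replicate 2, the lowest array. The value of Atxn1 minus Atxn1l averaged 0.18 ± 0.19 (SD, n = 4) over wild-type arrays and 0.24 ± 0.14 (SD, n = 4) over Cic-L-null arrays, so the paralogues were not separated by genotype (exact two-sided permutation p = 0.657, adjusted p = 0.657 over 3 pairs of members).

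**Figure D2:**
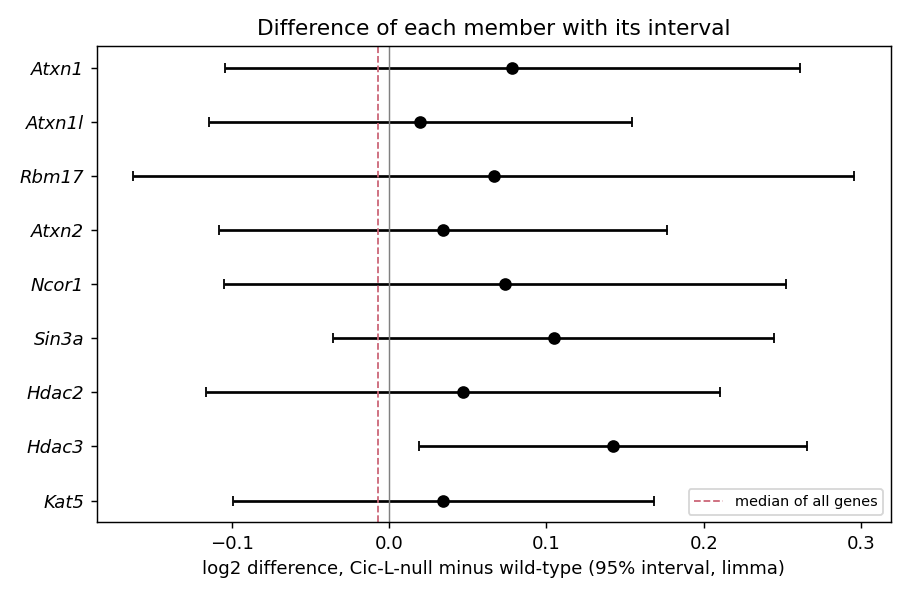
Points are log2 differences (x axis, Cic-L-null minus wild-type) of the 9 genes (y axis), bars are 95% intervals from limma, and the dashed line is the median of all genes at -0.0071. All 9 points lie above 0, and the interval of Hdac3, from 0.019 to 0.27, is the 1 that does not reach 0 before adjustment.

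Rbm17 encodes a splicing factor that binds ataxin-1. Its wild-type values were the most scattered of the 9, at 9.16, 9.08, 8.65 and 8.88 in replicates 1 to 4, whereas Cic-L-null replicates 1 to 4 lay at 9.04, 8.90, 9.07 and 9.01. Wild-type replicate 3 was the lowest array, and wild-type replicate 1 the highest. The difference was 0.066 (SE 0.10, 95% interval -0.16 to 0.30), and it was -0.031 without that array and 0.14 without wild-type replicate 1. Its 6 probe sets ranged from -0.036 to 0.14.

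Atxn2 encodes ataxin-2, an RNA-binding protein of stress granules whose own glutamine expansion causes spinocerebellar ataxia type 2. Wild-type replicates 1 to 4 lay at 9.88, 9.70, 9.68 and 9.65 and Cic-L-null replicates 1 to 4 at 9.79, 9.75, 9.73 and 9.77. Wild-type replicate 1 was above all Cic-L-null arrays and the other 3 wild-type arrays were below them all. The difference was 0.034 (SE 0.064, 95% interval -0.11 to 0.18). It was 0.087 without wild-type replicate 1, 0.0087 without wild-type replicate 4 and 0.11 with the median of probe sets. Of its 22 probe sets 14 lay above 0, from -0.33 for probe set 10525320 to 0.44 for probe set 10525323, and the groups of both overlapped.

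Ncor1 encodes a scaffold that holds HDAC3 and that ataxin-1 can bind. It lay at 10.48, 10.25, 10.29 and 10.12 in wild-type replicates 1 to 4 and at 10.41, 10.37, 10.25 and 10.40 in Cic-L-null replicates 1 to 4. The highest and the lowest array were both wild-type, replicates 1 and 4. The difference was 0.074 (SE 0.080, 95% interval -0.10 to 0.25). It was 0.14 without wild-type replicate 1 and 0.018 without wild-type replicate 4. Its 57 probe sets, the most of any member, ranged from -0.22 to 0.29 with 41 above 0.

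Sin3a encodes the scaffold of another deacetylase complex, which holds HDAC1 and HDAC2. It lay at 9.02, 8.93, 8.95 and 8.86 in wild-type replicates 1 to 4 and at 9.10, 8.98, 8.97 and 9.13 in Cic-L-null replicates 1 to 4. Of the wild-type arrays 3 lay below every Cic-L-null array, and replicate 1 fell among them. The difference was 0.10 (SE 0.063, 95% interval -0.036 to 0.24, adjusted p = 0.686 with limma), and 0.037 with the median of probe sets. Among its 26 probe sets 21 were above 0, and the lowest, 10585639 at -0.33, and the highest, 10585647 at 0.42, had overlapping groups. The value of Ncor1 minus Sin3a did not separate the groups (difference -0.031, exact permutation p = 0.571, adjusted p = 0.657).

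The start regions of the members were searched for the octamer that Capicua binds, to show where a member carries it. The search covered the 4 words TGAATGAA, TGAATGGA, TCAATGAA and TCAATGGA on both strands of the 250 bases before each start site in RefSeq (GRCm38.p6). Words may overlap within a longer repeat. Start regions of 7 members were listed, 11 in all, and Atxn1 and Hdac3 had no entry. A word was present in 2 of the 11, against 3.19% of 32851 start regions of the same length. These are the first listed start of Sin3a (chr9:57071790-57072039, plus strand) and the second listed start of Atxn2 (chr5:121738282-121738531, plus strand). They are shown 5′ to 3′ with the matching word in capitals.
Sin3a: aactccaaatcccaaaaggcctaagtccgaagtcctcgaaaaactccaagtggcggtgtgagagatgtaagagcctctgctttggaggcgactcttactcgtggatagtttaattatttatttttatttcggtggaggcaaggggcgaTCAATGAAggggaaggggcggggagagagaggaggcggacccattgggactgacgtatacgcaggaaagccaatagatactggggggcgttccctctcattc
Atxn2: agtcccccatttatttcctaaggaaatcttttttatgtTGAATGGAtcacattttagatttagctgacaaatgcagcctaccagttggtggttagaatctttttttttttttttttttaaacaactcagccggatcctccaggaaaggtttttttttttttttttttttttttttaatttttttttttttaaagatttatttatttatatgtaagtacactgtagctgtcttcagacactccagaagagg

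The Sin3a word ends 95 bases before the start and the Atxn2 word 205 bases before it. These letters are a description of the window and do not show binding. Neither gene passed the test, with Sin3a at 0.10 and Atxn2 at 0.034. Over the 503 measured genes that carry a word in a listed start region the median difference was 0.0026, against -0.0065 over the other measured genes with a listed start.

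Hdac3 encodes the deacetylase of the NCoR complex. Its log2 value was 10.02, 9.89, 9.93 and 9.99 in wild-type replicates 1 to 4 and 10.06, 10.14, 10.09 and 10.12 in Cic-L-null replicates 1 to 4. Every Cic-L-null array was above every wild-type array, and the nearest were replicates 1 of both groups. Hdac3 was the 1 member of 9 without overlap, whereas 5.94% of the genes measured had no overlap and 3.02% had none with Cic-L-null higher. The means were 9.96 ± 0.059 (SD, n = 4) and 10.10 ± 0.037 (SD, n = 4), a difference of 0.14 (SE 0.056, 95% interval 0.019 to 0.27), or 1.10-fold. The unadjusted p was 0.0278 and the adjusted p 0.45 with limma. The exact two-sided permutation p was 0.0286, the smallest that 4 against 4 arrays can give. Leaving out single arrays gave differences from 0.12 to 0.16.

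The probe sets of Hdac3 pointed the same way. Of 16, 15 were above 0, and the exception, 10458470, was at -0.016 (SE 0.15). The highest was probe set 10458475 at 0.45 (SE 0.23). It lay at 10.52, 9.62, 10.59 and 10.50 in wild-type replicates 1 to 4 and at 10.56, 10.77, 10.62 and 11.08 in Cic-L-null replicates 1 to 4, so 1 low wild-type array and 1 high Cic-L-null array set its size. Probe sets 10458463 and 10458473 had no overlap, with differences of 0.21 (SE 0.088) and 0.15 (SE 0.079). The median over the 16 was 0.10, and the smallest adjusted p over all probe sets was 0.728 with limma.

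Hdac2 encodes a deacetylase of the Sin3, NuRD and CoREST complexes. It lay at 10.72, 10.52, 10.40 and 10.48 in wild-type replicates 1 to 4 and at 10.65, 10.56, 10.53 and 10.58 in Cic-L-null replicates 1 to 4. Wild-type replicate 1 was the highest of the 8 arrays and the other 3 wild-type arrays lay below all Cic-L-null arrays. The difference was 0.047 (SE 0.074, 95% interval -0.12 to 0.21). It was 0.11 without wild-type replicate 1, 0.0040 without wild-type replicate 3, 0.020 with a Y-linked covariate and 0.023 on leaving out Cic-L-null replicate 1. Its 13 probe sets ranged from -0.099 to 0.22. Hdac3 minus Hdac2 averaged -0.57 ± 0.11 (SD, n = 4) over wild-type arrays and -0.48 ± 0.079 (SD, n = 4) over Cic-L-null arrays. That difference of 0.095 between the deacetylases did not pass (exact permutation p = 0.171, adjusted p = 0.514), so Hdac3 was not shown to differ from Hdac2 in its response.

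Kat5 encodes TIP60, an acetyltransferase that ataxin-1 also binds. It lay at 9.14, 8.998, 8.95 and 8.94 in wild-type replicates 1 to 4 and at 9.02, 9.06, 9.04 and 9.03 in Cic-L-null replicates 1 to 4. The Cic-L-null arrays lay close together, above 3 wild-type arrays and below replicate 1. The difference was 0.035 (SE 0.060, 95% interval -0.099 to 0.17). It was 0.078 without wild-type replicate 1, 0.015 without wild-type replicate 3, 0.013 without wild-type replicate 4 and 0.0073 with the median of probe sets. Its 17 probe sets ranged from -0.12 to 0.16, with 12 above 0.

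**Figure D3:**
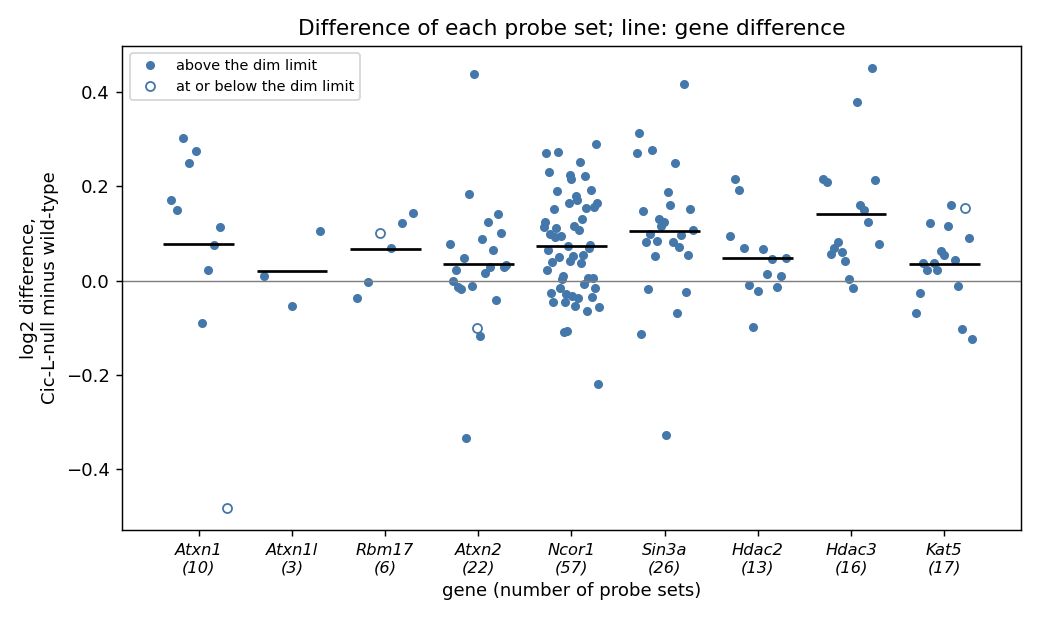
Each point is the log2 difference (y axis, Cic-L-null minus wild-type) of 1 probe set, grouped by gene (x axis, number of probe sets in brackets), and horizontal lines are the gene differences; open points mark probe sets at or below the dim limit of 6.31. The lowest point is the dim Atxn1 probe set at -0.48, and the highest is the Hdac3 probe set at 0.45.

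Over all 170 probe sets of the members, 126 or 74.1% were above 0, against 51.6% of all probe sets, with a median of 0.069 against 0.0068. Probe sets of a gene share their RNA and arrays and are not independent. None of the 170 was called with limma, where 1 of 241576 probe sets, or 0.000414%, was called. An unadjusted p under 0.05 was reached by 5 of the 170, a share of 2.94%, against 6.8% of all probe sets. Groups did not overlap in 3 of the 170, a share of 1.76%, against 4.3% of all probe sets; all 3 were higher in Cic-L-null, as were 2.39% of all. When each probe set was taken relative to the mean of its gene on the same array, 0 of the 170 were called with limma, 1 had an unadjusted p under 0.05, and 0 of 209838 probe sets were called overall.

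Of 36 pairs of members, 31 or 86.1% had a Pearson correlation above 0 over the 8 arrays, with a median of 0.50. Among all pairs of genes above the dim limit 52.3% were above 0, with a median of 0.03. This comparison is a description, since pairs share arrays and genes. Atxn1l was apart, with correlations below 0 with 5 of the 8 other members. The size of the correlation with the first principal component of the arrays was lowest for Atxn1l (r = -0.081) and Atxn1 (r = -0.31) and ran from r = -0.58 for Hdac3 to r = -0.93 for Hdac2 in the other 7, given with no test; its part in the pair correlations was not tested. Atxn2 and Hdac2 were the pair with the smallest adjusted p by rank (r = 0.925, exact permutation p = 0.00117, adjusted p = 0.0348; Spearman rho = 0.976, exact permutation p = 0.000397, adjusted p = 0.0143). Without wild-type replicates 1 and 4, the arrays farthest from the median of Atxn2, r was 0.919. Atxn2 and Ncor1 also passed by both measures (r = 0.899, exact permutation p = 0.00347, adjusted p = 0.0417; rho = 0.929, exact permutation p = 0.00223, adjusted p = 0.0402), with r = 0.80 without the same arrays. Atxn2 and Kat5 passed by Pearson alone (r = 0.925, exact permutation p = 0.00193, adjusted p = 0.0348; rho = 0.786, exact permutation p = 0.0279, adjusted p = 0.126), with r = 0.723 without those arrays.

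Taken as deviations from the group means, 29 of the 36 correlations were above 0, with a median of 0.43, against 53% of all pairs and a median of 0.04. Wild-type replicate 1 held the highest wild-type value for 8 of 9 members, all but Atxn1l, and the highest of all 8 arrays for 5 of 9. Among genes above the dim limit it held the highest wild-type value in 44.6%. The lowest array was always wild-type, replicate 4 for 5 members, replicate 2 for 2 and replicate 3 for 2. Over genes above the dim limit the lowest array was wild-type replicate 4 in 10.04% and wild-type replicate 2 in 9.75%. It was wild-type replicate 3 in 24.13% and wild-type replicate 1 in 12.29%. Without wild-type replicate 1 the median difference of the members was 0.12, against -0.010 over all genes, and still 0 of 9 were called. Without wild-type replicate 4 it was 0.032, with Atxn2 at 0.0087 and Ncor1 at 0.018. Only the labels of wild-type replicate 1 name an extraction, which does not show that the other arrays differed in it. Whether extraction bears on the values of that array was not tested beyond leaving it out. Atxn1 and Atxn1l did not vary together (r = -0.425, exact permutation p = 0.299, adjusted p = 0.457; rho = -0.333, exact permutation p = 0.428, adjusted p = 0.571; r = -0.258 without wild-type replicate 4 and Cic-L-null replicate 3).

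**Figure D4:**
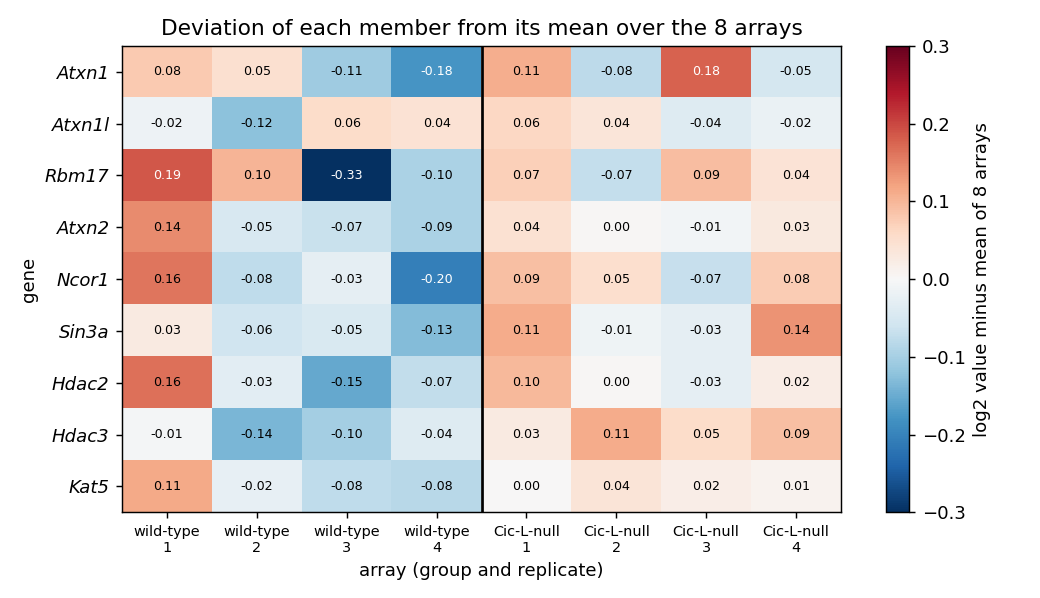
Cells give the log2 value of each gene (rows) on each array (columns) minus the gene's mean over the 8 arrays, with red above and blue below the mean and a black line between the genotypes. Wild-type replicate 1 is the highest array for 5 of the 9 genes, and the lowest cell of every row is in a wild-type array. Rows share the 8 arrays and are not independent.

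The genes whose 8-array profiles were most like that of Atxn1, among the 14009 other genes above the dim limit, were Rdh11 (Pearson r = 0.945), Tcp11l1 (r = 0.932) and Ogn (r = 0.930). For Atxn1l they were Isca2 (r = 0.952), Ifitm10 (r = 0.950) and Pgp (r = 0.934). These are the highest of a large number of comparisons over only 8 arrays, given as a description. None of the 6 passed between genotypes, and Ogn differed most, by 0.21 (SE 0.15, adjusted p = 0.755 with limma).

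Other genes of the same complexes were described from 8 lists, with 97 genes measured besides Cic. These lists were also chosen with earlier results of these data known. With limma 0 of the 97 were called, 13 had an unadjusted p under 0.05 and 11 had groups that did not overlap, shares of 13.4% and 11.3% beside 9.26% and 5.94% of all genes. Of the 97, 60 were above 0, and the median difference was 0.023.

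The other proteins that bind or regulate ataxin-1 numbered 19 measured with Cic, of which Cic alone was called. Their median difference was -3.4e-05, with 9 above and 10 below 0. Rora, a nuclear receptor of Purkinje cells, lay at 10.82, 10.79, 10.72 and 10.72 in wild-type replicates 1 to 4 and at 10.94, 10.89, 10.91 and 10.96 in Cic-L-null replicates 1 to 4. Its groups did not overlap, and it differed by 0.16 (SE 0.054, adjusted p = 0.335 with limma). Rps6ka5, which encodes the kinase MSK1, and Rbpj, a transcription factor of the Notch pathway, also had unadjusted p under 0.05. These 3 genes were chosen after their values were seen. Rps6ka5 and Rbpj differed by 0.19 (SE 0.077) and 0.13 (SE 0.056).

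The 8 measured partners of NCoR1 had a median difference of 0.040, with 6 above 0 and 0 called. Tbl1xr1, a subunit of the NCoR complex, lay at 9.69, 9.62, 9.55 and 9.64 in wild-type replicates 1 to 4 and at 9.87, 9.89, 9.82 and 9.95 in Cic-L-null replicates 1 to 4. Its groups did not overlap, and the difference was 0.26 (SE 0.057, adjusted p = 0.143 with limma), larger than that of any member. It was called with a trended and robust variance (adjusted p = 0.0290), and among the other alternatives its adjusted p was never under 0.0738. Hdac4, a deacetylase without strong activity of its own that docks on the same scaffold, differed by 0.28 (SE 0.074, adjusted p = 0.224), from 8.85 ± 0.081 (SD, n = 4) to 9.13 ± 0.12 (SD, n = 4), also without overlap.

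The Sin3 list of 16 genes had a median of 0.026, with 9 above 0 and 0 called. Rbbp7, a histone-binding subunit, differed by -0.15 (SE 0.055, adjusted p = 0.406) and Sin3b, the paralogue of Sin3a, by 0.14 (SE 0.056, adjusted p = 0.471), both without overlap. The 13 genes of the NuRD and CoREST complexes had a median of 0.026 and 0 called, with the remodelling ATPase gene Chd3 at 0.14 (SE 0.052, adjusted p = 0.435) and the scaffold gene Gatad2a at -0.16 (SE 0.062, adjusted p = 0.454). The 17 genes of the TIP60 complex had a median of 0.026 and 0 called. Ruvbl2, an ATPase of that complex, differed by -0.21 (SE 0.062, adjusted p = 0.288 with limma), but by -0.086 (SE 0.10) with the median of probe sets. The subunit gene Epc2 differed by 0.18 (SE 0.066, adjusted p = 0.41 with limma).

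Splicing partners of Rbm17, 11 genes with 8 above 0, had a median of 0.028 and 0 called, and U2surp and Sf3a1 had the smallest p at 0.096 (SE 0.053) and 0.088 (SE 0.063). RNA-binding partners of Atxn2, 8 genes with 4 above 0, had a median of -0.0075 and 0 called. The poly(A) nuclease subunit gene Pan3 differed there by 0.14 (SE 0.061) and the poly(A)-binding protein gene Pabpc4 by 0.15 (SE 0.12). The 6 other polyglutamine disease genes had a median of 0.081 with 5 above 0 and 0 called, and Atn1 and Atxn3 differed by 0.097 (SE 0.057) and 0.10 (SE 0.063).

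**Figure D5:**
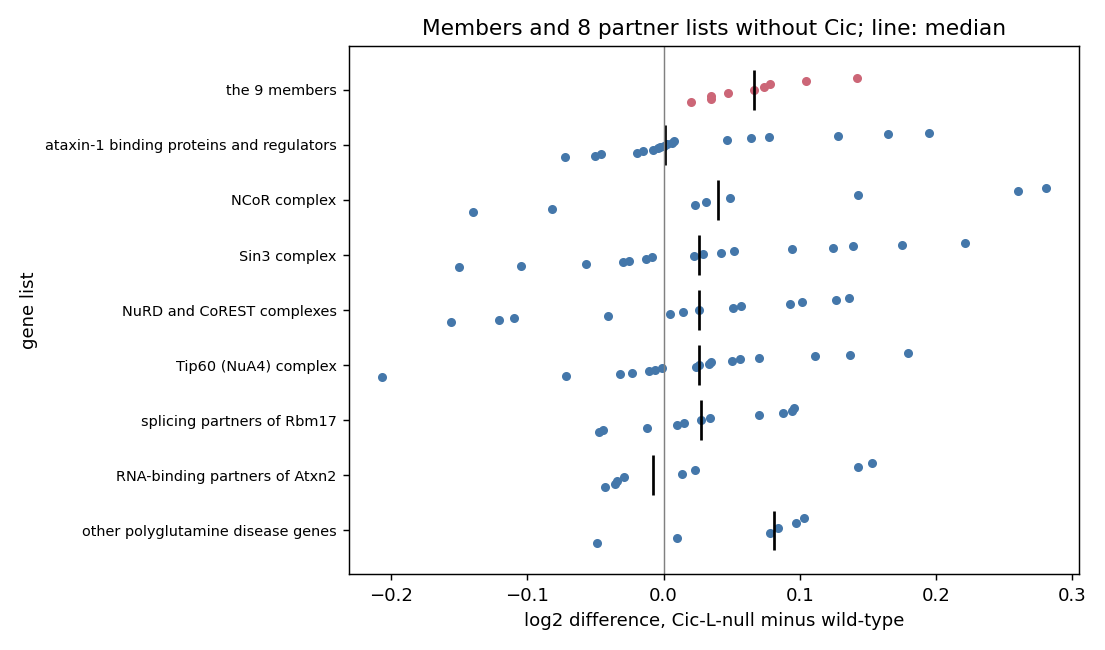
Points are log2 differences (x axis, Cic-L-null minus wild-type) of the 9 members and of the genes in 8 partner lists without Cic (y axis), and vertical bars are medians. The members span 0.020 to 0.14, and points of the partner lists reach 0.28 for Hdac4 and -0.21 for Ruvbl2.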

How the data were processed

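RNA of 8 cerebella was measured on arrays. Deposited values are log2 expression per probe set, which, per the submitters' processing notes, the authors made with RMA. The same notes name the Affymetrix Power Tools. No version or genome build was given in the sources used here. Probe sets were named from the platform annotation, 212097 with 1 symbol, 4475 with several and 25004 with none, and older symbols were updated through RefSeq (GRCm38.p6).

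Gene values are means over probe sets with 1 symbol. They were compared with limma 3.58.1 in R 4.3.3 (lmFit, eBayes, no trend, no filter), with Benjamini-Hochberg adjustment over 20352 genes, and all differences are Cic-L-null minus wild-type. Probe sets were fitted likewise, and diffSplice tested unequal differences within a gene. In simulated data diffSplice recovered 180 of 200 genes with 1 probe set shifted by 2 log2 units but called 217 unchanged genes of 18093. The simulated noise was independent between probe sets, whereas probe sets of a gene share their arrays, and in the data 109 genes were called. It therefore does not tell how many of the 109 calls are false. In the same simulated data a second measure was tried. Probe set values relative to their gene, added after seeing the data, recovered 142 and called 10 unchanged genes. Member pairs were compared by exact permutation over 70 assignments, also added after seeing the data. Arrays give no read depth, and the number of animals limits the precision. The limma p-values set a difference against the variance between arrays within groups, estimated with help from all genes. With 1 array for each animal, variation between animals and between arrays cannot be told apart.

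The members, the partner lists and the marker lists were chosen with earlier results of these data known. Genes named are the members, Cic, called members of each partner list or otherwise the 2 with the smallest p, the 3 genes most like Atxn1 and Atxn1l, and for single members the probe sets with the lowest and highest difference; others are marked or serve as marker checks. Some listed genes are not reported here. No marker list had a called gene. Purkinje cell markers had a median of 0.014, granule cell 0.084, forebrain neuron -0.086, hindbrain and brainstem 0.0091 and blood 0.13. For oligodendrocyte markers it was -0.11, for Bergmann glia and astrocyte -0.14 and for choroid plexus -0.28.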

Additional observations from a re-analysis of the deposited data

How the results depend on the processing

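In 180 combinations of the 9 members with 20 alternatives, 178 differences stayed above 0 and 0 were called, with a smallest adjusted p of 0.254 (limma). Several alternatives could not change a member's difference, so the count of signs overstates how far it was tried. These were genes above the dim limit, trend and robust variance, unmoderated, exact permutation and the replicate block. Including probe sets with several symbols also left the member differences as they were. Exact permutation could add no call, since at its smallest p of 0.0286 the adjusted p was 0.481 over all genes. The exceptions in sign came from leaving out 1 array: Atxn1l ran from -0.018 to 0.042 and Rbm17 from -0.031 to 0.14 over the 8 arrays left out in turn. Without its lowest probe set, an alternative added after seeing the data, Atxn1 differed by 0.14 (adjusted p = 0.693). The count of called genes, 28, was 2 with the median of probe sets, 69 with genes above the dim limit, 130 with trend and robust variance, 54 with array weights, 18 with a Y-linked covariate, 0 unmoderated and 0 with exact permutation, whose smallest adjusted p over all genes was 0.481, and it ran from 0 to 37 with 1 array left out. The 1 called probe set became 5 with probe sets above the dim limit and 0 to 3 with 1 array left out. Genes with unequal probe set differences, 109, became 67 with probe sets above the dim limit, 0 with relative probe set values, and 63 to 272 with 1 array left out. With the replicate block, 0 genes and 0 probe sets were called, the member differences were the same by construction, and their adjusted p ran from 0.484 for Hdac3 to 0.953 for Atxn1l. Same-numbered arrays correlated in their deviations by 0.219, 0.00033, 0.207 and 0.026, and 2 of 4 wild-type arrays correlated best with their own number. These values were not set against a reference for unpaired arrays, so they do not decide whether the numbers pair the samples. The main fit did not use the numbers, and the replicate block did. Dim probe sets and 4 animals per group limit what small differences can be seen; median SE over all genes was 0.077.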

Other observations

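The wild-type arrays were more scattered than the Cic-L-null arrays for 7 of the 9 members, with a median SD of 0.11 against 0.052. Among genes above the dim limit the SD was larger in wild-type for 59.1%, with medians of 0.10 and 0.086. For Kat5 the SD was 0.091 over wild-type and 0.016 over Cic-L-null arrays, and for Atxn2 it was 0.11 and 0.024. In both, wild-type replicate 1 lay above the other wild-type arrays. It was at 9.14 against 8.94 to 8.998 for Kat5 and at 9.88 against 9.65 to 9.70 for Atxn2. No SD was taken without that array. This difference in spread was not tested. In the 20 groups of 4 arrays formed by the members and Cic, 0 had an array past Dixon's limit for a single outlying value.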
